A study of Mus musculus with 8 samples.

Results

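Activation of mouse hepatic stellate cells on a plastic dish was compared with their activation inside an injured liver. The comparison used 6 of the study's 8 arrays, chosen by their titles. Of these, 2 arrays held RNA of stellate cells from healthy mice kept in culture for 10 days. The other 4 held RNA of cells isolated from mice given carbon tetrachloride (CCl4) and never seeded, 2 after 2 weeks and 2 after 4 weeks. The study's remaining 2 arrays held quiescent cells of healthy mice, also taken without seeding, and their levels are given for reference. All the mice were BALB/c, an inbred strain, and their age and sex are not given in the sources used here. The treatment text that all the samples share names valproic acid, an inhibitor of histone deacetylases, at 2.5 mM from 2 hours after seeding. No title or treatment label names it, so it cannot be said whether the cultured cells were given it. Cultured and CCl4 cells thus differ in the health of the donor mice, in seeding on plastic and perhaps in valproic acid, and these cannot be told apart. Nothing in the labels ties the 2 arrays of a group to separate mice or cultures, so the tests weigh differences against a spread that may be technical.

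Stellate cells lie between the hepatocytes and the lining cells of the liver sinusoid, where they hold most of the body's vitamin A as retinyl ester droplets. When the liver is injured they lose these droplets, multiply, take on the contractile fibres of smooth muscle and lay down collagen. Plating on stiff plastic starts a like programme and is the usual laboratory model of it. CCl4 is turned by hepatocytes into a radical that kills them, and repeated doses leave a fibrotic liver. YAP and TAZ, the coactivators that the Hippo kinases hold in the cytoplasm, respond to stiffness and act through the TEAD DNA-binding proteins.

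Levels are log2 units of RMA, the array summary the authors deposited, so a difference of 1 is a 2-fold change. Each difference is culture minus CCl4, with the 2 CCl4 times weighted equally, ± its standard error (SE) from limma. A gene is called higher or lower in culture where p, adjusted by Benjamini-Hochberg over 22180 genes, was under 0.05. By this rule 2789 genes were higher in culture (12.6%) and 1933 were lower (8.72%), and the median difference over all genes was 0.00. Counts of list members below are to be read beside these 2 shares. The culture arrays lay above all 4 CCl4 arrays in 2768 of the genes called higher, and below all 4 in 1901 of those called lower. For comparison, both culture arrays lay above all CCl4 arrays in 21.7% of all genes and below them in 18.2%. Large differences more often went down: 63 genes were more than 16-fold lower in culture and 21 more than 16-fold higher, and at more than 4-fold the counts were 309 and 198. Without culture replicate 2 the counts of called genes fell to 1683 higher and 1163 lower, and without culture replicate 1 to 1860 and 1268.

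The quiescent arrays show on which side of the comparison the starting level lay. The quiescent mean was nearer to the CCl4 mean than to the culture mean in 79.1% of the genes lower in culture and in 87.1% of those higher in culture, against 65.7% of all 22180 genes. As a guide to background, chosen after the data were seen, the 1390 genes for olfactory and vomeronasal receptors stood at a median of 3.24 log2 units on the 6 arrays and a 95th percentile of 4.77. Of the genes lower in culture, 369 of 1933 had a culture mean at or under that percentile, and of the genes higher in culture, 473 of 2789 had a CCl4 mean there. The same held for 29 of the 63 genes over 16-fold lower and 11 of the 21 over 16-fold higher. Where a group mean lay at or under the guide, as in 45 of the genes named, the size of the difference is limited by background and may be too small.

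**Figure D1:**
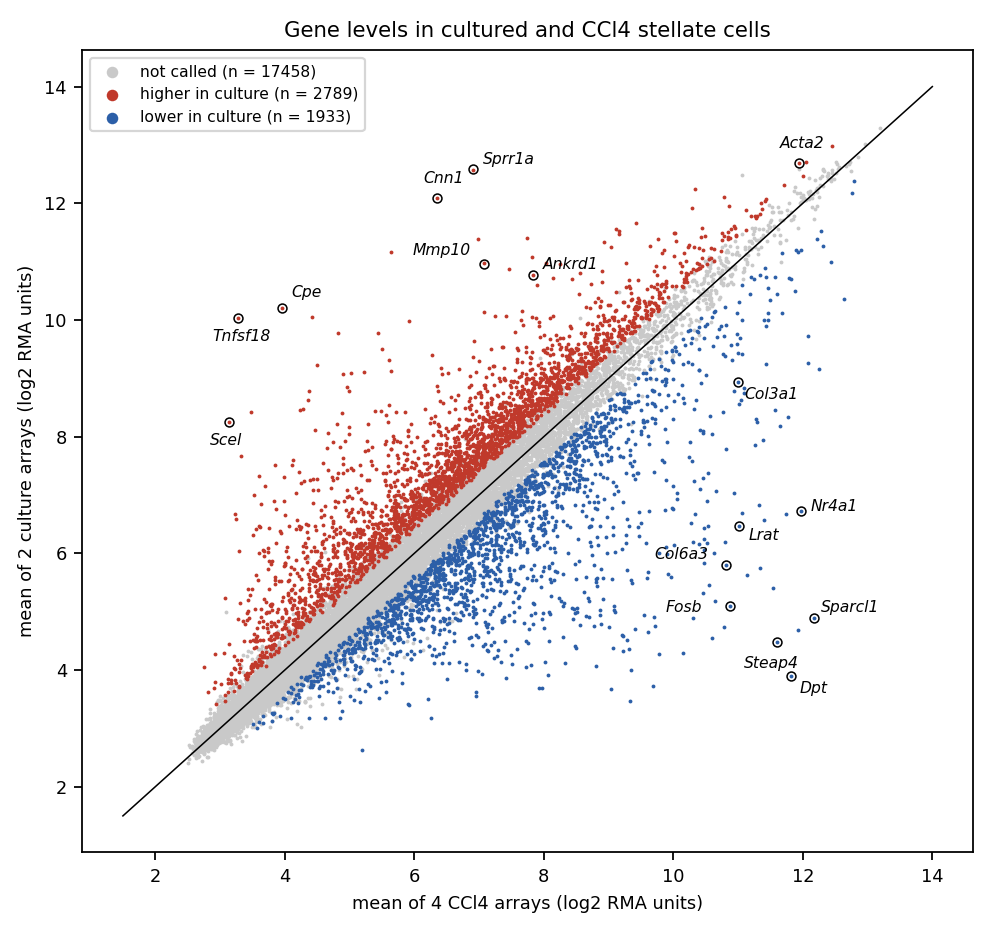
Each point is 1 of 22180 genes, with its mean level on the 4 CCl4 arrays on the x axis and its mean level on the 2 culture arrays on the y axis, both in log2 RMA units, and the line marks equal levels. Red points (2789) were called higher and blue points (1933) lower in culture, grey points were not called, and circled genes are described in the text; the blue cloud reaches farther from the line than the red one.

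Markers of several other liver cells stood at unequal levels, and these lists are given first because RNA of such cells could enter the differences that follow. Of 22 hepatocyte markers, 14 were lower in culture (8.72% of all genes were) and 0 higher (limma, 1 at an unadjusted p under 0.05), with a median difference of -1.69. The median hepatocyte marker stood at 4.61 and 4.58 in culture, at 6.67 and 7.61 at 2 weeks and at 6.26 and 5.83 at 4 weeks of CCl4. The log2 of their summed levels was 9.48 and 9.58 in culture against 11.87 to 13.64 after CCl4, and 12 of the 22 lay at or under the background guide in both culture arrays. Alb, the serum albumin gene, read 4.42 and 4.17 in culture, 10.68 and 11.12 at 2 weeks and 9.57 and 9.23 at 4 weeks of CCl4 (-5.86 ± 0.18, adjusted p = 1.67e-07). Ahsg, a plasma glycoprotein of hepatocytes, differed by -5.35 ± 0.20 and the liver fatty acid carrier Fabp1 by -5.95 ± 0.24. The marker higher at an unadjusted p was the urea cycle gene Ass1, picked out after its values were seen (0.72 ± 0.22, adjusted p = 0.0524), which was called in 4 of the 15 alternative settings (adjusted p 0.00679 to 0.0484). In bulk RNA, fewer cells of a type and less RNA per cell cannot be told apart.

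Sinusoidal endothelial markers gave the same picture, with 19 of 24 lower in culture, 0 higher (limma, 0 at an unadjusted p under 0.05) and a median difference of -1.87. Their median stood at 5.50 and 5.16 in culture and at 6.43 to 7.79 after CCl4, and their summed level at 11.56 to 11.62 against 12.62 to 13.10 log2 units. Clec4g, a lectin of sinusoidal endothelium, read 4.33 and 4.33 in culture, 9.33 and 9.90 at 2 weeks and 8.59 and 9.07 at 4 weeks of CCl4 (-4.89 ± 0.26, adjusted p = 4.7e-06), and both culture arrays were under the background guide. Plvap, which forms the diaphragms of endothelial openings, differed by -3.16 ± 0.17, and the progenitor and endothelial antigen Cd34 by -3.72 ± 0.19. Cd34 is also listed here as a portal fibroblast marker. It was higher after CCl4 (8.14 to 8.57) than in quiescent cells (7.06 and 6.48), whereas the endothelial median was highest in quiescent cells (9.47 and 8.64). In culture 5 of the 24 lay at or under the guide.

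Macrophage markers depended on the CCl4 time. Against both times together 10 of 22 were lower in culture and 0 higher (limma, 1 at an unadjusted p under 0.05). Against 2 weeks 18 were lower (7.74% of all genes were). Against 4 weeks 0 were lower (limma, 2 at an unadjusted p under 0.05) and 3 were higher, Cd68, Lyz2 and Vsig4 (10.2% of all genes were). The median differences were -1.20 and 0.00. With the CCl4 arrays fitted as 1 group, 0 of the 10 calls were left. Cybb, a subunit of the phagocyte oxidase, stood at 6.17 and 5.98 in culture, at 7.51 and 7.83 at 2 weeks and at 6.51 and 6.56 at 4 weeks. Its difference of -1.03 ± 0.15 (adjusted p = 0.00153) lost its call with CCl4 as 1 group (adjusted p = 0.0783), as did that of the antibody receptor Fcgr1 (-1.17 ± 0.18, adjusted p = 0.00202, then 0.0552). The summed level of the list was 12.37 to 12.48 in culture, 13.03 to 13.27 at 2 weeks and 11.91 to 12.10 at 4 weeks, and 1 of the 22 lay under the guide in culture.

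Of 13 monocyte and neutrophil markers, 5 were lower and 0 higher in culture (limma, 0 at an unadjusted p under 0.05). The neutrophil calcium-binding gene S100a9 differed by -4.60 ± 0.50 and the monocyte antigen Ly6c2, which has close copies in the genome that the probes may not separate, by -2.02 ± 0.23. Among 14 lymphocyte markers, of which 12 lay at or under the guide in culture, 1 was lower, near the 8.72% of all genes. It was the T cell receptor subunit Cd3e (-0.60 ± 0.17, adjusted p = 0.0343). That call was lost without culture replicate 2 (adjusted p = 0.284), 2-week replicate 2 (0.0897) or 4-week replicate 2 (0.101), and with CCl4 as 1 group (0.0955), while the list held 3 lower genes when either quiescent array was left out and 2 without 4-week replicate 1. Biliary epithelial markers gave 4 lower and 1 higher of 11, with 2 lower without culture replicate 1. Krt18 (-1.96 ± 0.27) and Krt19 (1.14 ± 0.15), keratins of simple epithelia, went opposite ways. The parts that these cells' RNA played in the differences described below were not tested.

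**Figure D2:**
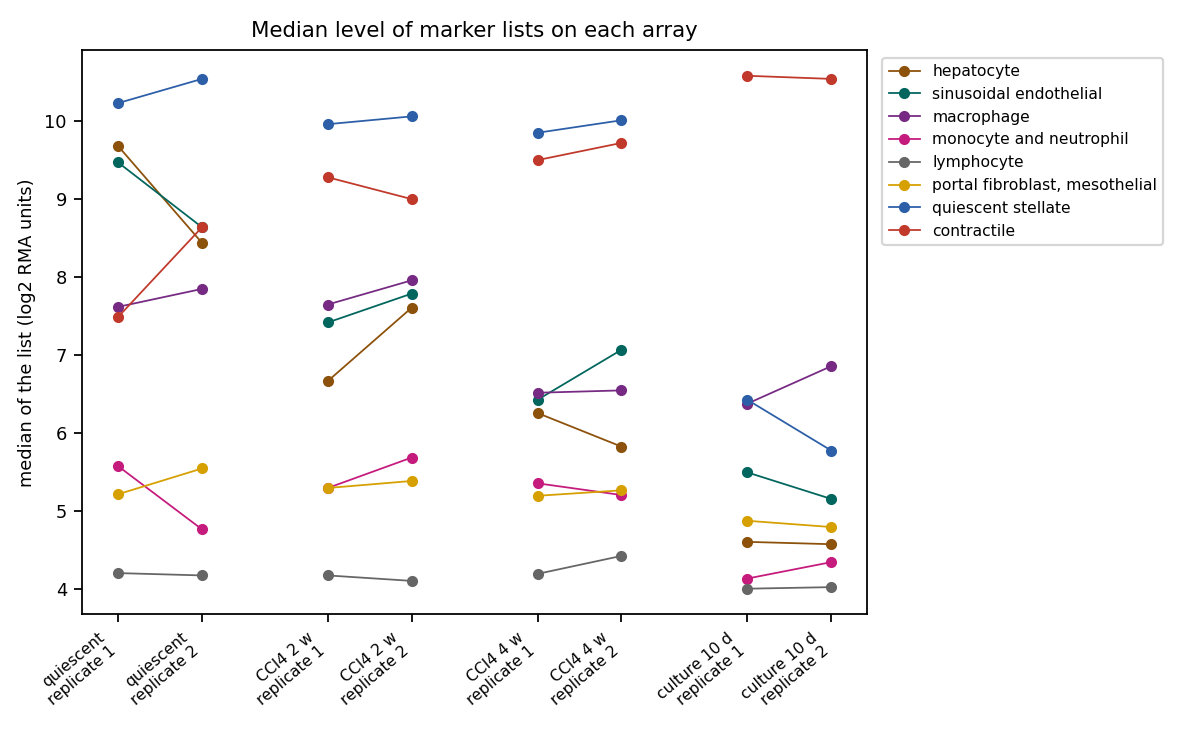
Points give the median level, in log2 RMA units, of 8 gene lists on each of the 8 arrays, and lines join the 2 replicates of a group. In culture the hepatocyte, endothelial and quiescent stellate medians lie below all CCl4 arrays (4.61 and 4.58 for hepatocyte markers) and the contractile median above them (10.58 and 10.54 against 9.0 to 9.72), while the macrophage median in culture (6.38 and 6.86) lies near the 4-week arrays (6.52 and 6.55).

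Stellate identity was checked with genes that mark the resting cell, and by list median it is here that culture and CCl4 cells stood farthest apart. Of 28 such genes, 24 were lower in culture and 1 higher, with a median difference of -3.13, the lowest of the 37 lists examined. The lists were chosen with earlier results of these data known, so this rank adds no support. Lrat, the enzyme that makes retinyl esters, read 7.21 and 5.74 in culture, 10.95 and 11.11 at 2 weeks and 11.04 and 10.97 at 4 weeks of CCl4. Every CCl4 array thus lay more than 3 units above the higher culture array, and the quiescent arrays, at 10.95 and 11.29, lay with the CCl4 cells (-4.54 ± 0.33, adjusted p = 2.58e-05). Hgf, the hepatocyte growth factor that stellate cells make for their neighbours, read 6.58 and 6.56 in culture, 11.28 and 11.23 at 2 weeks and 11.51 and 11.56 at 4 weeks of CCl4 (-4.82 ± 0.11, adjusted p = 5.19e-08), a 28.3-fold difference. Reln, an extracellular glycoprotein, stood at 7.45 and 6.63 in culture and at 10.72 to 11.17 after CCl4 (-3.89 ± 0.23, adjusted p = 7.23e-06).

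The 4 largest differences of the list were those of Steap4, Cygb, Abcc9 and Rgs5. Steap4, a metalloreductase, read 4.50 and 4.45 in culture, 11.65 and 11.60 at 2 weeks and 11.59 and 11.55 at 4 weeks of CCl4, against 11.95 and 11.74 in quiescent cells, and the difference of -7.12 ± 0.12 (adjusted p = 2.01e-08) starts from a culture level under the background guide, which limits its size. Cygb, the globin of stellate cells, read 4.90 and 4.58 in culture, 10.64 and 10.76 at 2 weeks and 10.96 and 10.76 at 4 weeks of CCl4 (-6.04 ± 0.14, adjusted p = 5.19e-08). Rgs5, a G-protein regulator of pericytes, stood at 6.71 and 6.63 against 11.69 to 11.82 (-5.07 ± 0.12, adjusted p = 5.19e-08), and its other probe set differed by -4.83. Abcc9, a subunit of potassium channels in pericytes, chosen after its values were seen, stood at 5.74 and 4.63 in culture, 10.47 to 10.73 after CCl4 and 11.89 and 12.04 in quiescent cells (-5.46 ± 0.26, adjusted p = 2.37e-06). In each of the 4 genes the quiescent arrays lay above all CCl4 arrays. Their culture and CCl4 arrays did not overlap, but they were picked for the size of their differences, so this adds no support. Both culture arrays lay below all CCl4 arrays in 18.2% of all genes. Not all stellate genes followed. Des, the muscle-type filament desmin used to find stellate cells, stood at 9.96 and 9.87 in culture and 9.68 to 10.08 after CCl4, with overlapping arrays (0.03 ± 0.12, adjusted p = 0.918). Pdgfrb, the receptor for the mitogen PDGF-BB, was lower in culture (9.62 and 9.74 against 10.80 to 11.34, -1.35 ± 0.18, adjusted p = 0.000739). Bco1, which cleaves beta-carotene to retinal, was the 1 member called higher (10.70 and 10.76 against 7.76 to 8.43, 2.58 ± 0.26, adjusted p = 0.00015). The filament gene Nes (1.41 ± 0.47, adjusted p = 0.065) was called as well in 5 of the 15 alternatives, some of which are the same fit.

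Transcription factors of the stellate and mesenchymal lineage showed 13 of 24 lower and 2 higher in culture, with a median difference of -0.68. Mef2c, a muscle and mesenchymal factor, read 5.29 and 5.26 in culture, 8.18 and 8.10 at 2 weeks and 8.05 and 8.10 at 4 weeks of CCl4 (-2.83 ± 0.11, adjusted p = 8.04e-07), and a further probe set gave -3.52. Nr1h4, the bile acid receptor FXR, differed by -3.45 ± 0.20, and Ets2 by -1.65 ± 0.11 (adjusted p = 7.35e-06 and 1.61e-05). The mesenchymal factor Twist1 (1.17 ± 0.26, adjusted p = 0.012) and Osr1 (0.70 ± 0.14, adjusted p = 0.00746) were called higher. Both of those calls, and so the whole count, were lost without culture replicate 2 (adjusted p = 0.131 and 0.0855).

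Among 21 vitamin A genes, 5 were higher and 6 lower in culture, and the lower ones were 3 with either culture array left out. All 11 are given here, some of them chosen after their values were seen. Beside Lrat, the lower ones were the carrier Rbp4, the retinol-oxidising enzymes Rdh10 and Adh1, and the receptors Rara and Rxra. Rbp4 stood at 5.78 and 5.76 in culture, 7.82 and 7.78 at 2 weeks and 6.92 and 6.60 at 4 weeks (-1.50 ± 0.18, adjusted p = 0.000482). Rdh10 differed by -0.95 ± 0.17 (adjusted p = 0.00457, and 0.057 without culture replicate 1), Rara by -0.57 ± 0.13 (adjusted p = 0.0116, and 0.119 without culture replicate 2) and Rxra by -0.53 ± 0.14 (adjusted p = 0.0246). The calls of Rxra and of Adh1 (-1.40 ± 0.36, adjusted p = 0.0242) were each lost in 5 of the 15 alternative settings. A dimmer Adh1 probe set gave -0.20 and was not called. Against 4 weeks alone Adh1 was not called either (-0.73 ± 0.42, limma, adjusted p = 0.324). The higher ones were the retinol dehydrogenase Rdh11 (0.97 ± 0.16), Aldh1a1, which makes retinoic acid, Cyp26b1, which degrades it, the receptor Rarb (1.41 ± 0.13) and the binding protein Crabp1 (0.99 ± 0.14). Aldh1a1 stood at 11.55 and 11.43 against 9.94 to 10.08 (1.48 ± 0.13, adjusted p = 6.52e-05), and Cyp26b1 at 7.45 and 6.40 against 4.57 to 5.65 (1.75 ± 0.31, adjusted p = 0.004). Crabp1 lay under the background guide in both groups (4.64 and 4.44 in culture). Dehydrogenases and receptors were thus found on both sides.

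Lipid genes gave 3 higher and 6 lower of 22, beside 12.6% and 8.72% of all genes, so the higher count was near the share of all genes. G0s2, an inhibitor of droplet lipase, read 6.27 and 5.95 in culture, 9.86 and 9.78 at 2 weeks and 9.77 and 10.15 at 4 weeks of CCl4 (-3.78 ± 0.22, adjusted p = 6.48e-06). Lpl, the lipase that frees fatty acids from lipoproteins, differed by -3.43 ± 0.21 and the carrier Fabp4 by -4.11 ± 0.44, the latter with culture arrays at 6.90 and 5.49. A related carrier, Fabp5, was higher (1.47 ± 0.25, adjusted p = 0.00282), and its 3 other probe sets gave 1.44, 2.72 and 1.70. Without culture replicate 1 there was 1 lipid gene higher in place of 3.

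Contractile genes differed in the opposite direction, but not as a block. Of 28 smooth muscle and stress fibre genes, 12 were higher and 3 lower in culture, with a median difference of 0.61. With the 6 arrays alone fitted, 17 were higher and 3 lower. Myl9, whose quiescent arrays stood far apart at 6.76 and 10.30, was among those added. Acta2, the smooth muscle actin that defines myofibroblasts, was high in all 6 arrays: 12.71 and 12.69 in culture, 11.95 and 11.92 at 2 weeks and 11.70 and 12.18 at 4 weeks of CCl4, from 6.78 and 7.24 in quiescent cells. Its culture arrays lay above every CCl4 array, by 0.76 ± 0.18 (adjusted p = 0.0143), a 1.69-fold difference whose call was lost without culture replicate 1 (adjusted p = 0.0884) or 2 (0.0858). Cnn1, calponin of smooth muscle, was a different case: 12.16 and 12.02 in culture, 6.61 and 6.40 at 2 weeks and 5.92 and 6.45 at 4 weeks of CCl4, a 53.7-fold difference (5.75 ± 0.18, adjusted p = 1.92e-07). The quiescent arrays, at 4.35 and 4.71, lay below all 6. The enteric actin Actg2 read 11.51 and 11.31 in culture, 7.88 and 7.6 at 2 weeks and 7.10 and 8.38 at 4 weeks of CCl4 (3.67 ± 0.30, adjusted p = 5.11e-05), and the leiomodin Lmod1 9.13 and 8.96 in culture against 6.52 to 7.52 (2.18 ± 0.18, adjusted p = 5.44e-05).

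The 3 contractile genes lower in culture, of 28 measured, were Mylk, Mrtfb and Smtn, a count near the 8.72% share of all genes. Mylk, the kinase of myosin light chain, stood at 7.43 and 7.09 in culture against 8.27 to 8.87 (-1.28 ± 0.24, adjusted p = 0.00487), and lost its call without culture replicate 2 (adjusted p = 0.0613). Mrtfb, a coactivator of serum response factor, differed by -0.62 ± 0.12 (adjusted p = 0.00465). Its relative Mrtfa, named for comparison after its values were seen, was called higher (1.49, limma, adjusted p = 0.00012), so these coactivators went opposite ways. Smtn, smoothelin, differed by -0.78 ± 0.20 (adjusted p = 0.0199). Its call was lost with either culture array left out (adjusted p = 0.129 and 0.0896), 2-week replicate 1 (0.0598) or either 4-week array (0.0578 and 0.0554), and on the mean of its probe sets (0.164), since the dimmer one gave -0.12. Counts of the list were 7 higher without culture replicate 1 and 6 higher and 1 lower without culture replicate 2. Among 14 vascular smooth muscle and pericyte markers, which share genes with this list and with the resting-cell list, 4 were higher and 7 lower. The higher ones included Kcnmb1, a potassium channel subunit of smooth muscle (7.71 and 8.41 against 4.56 to 4.82, 3.39 ± 0.19, adjusted p = 5.63e-06).

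**Figure D3:**
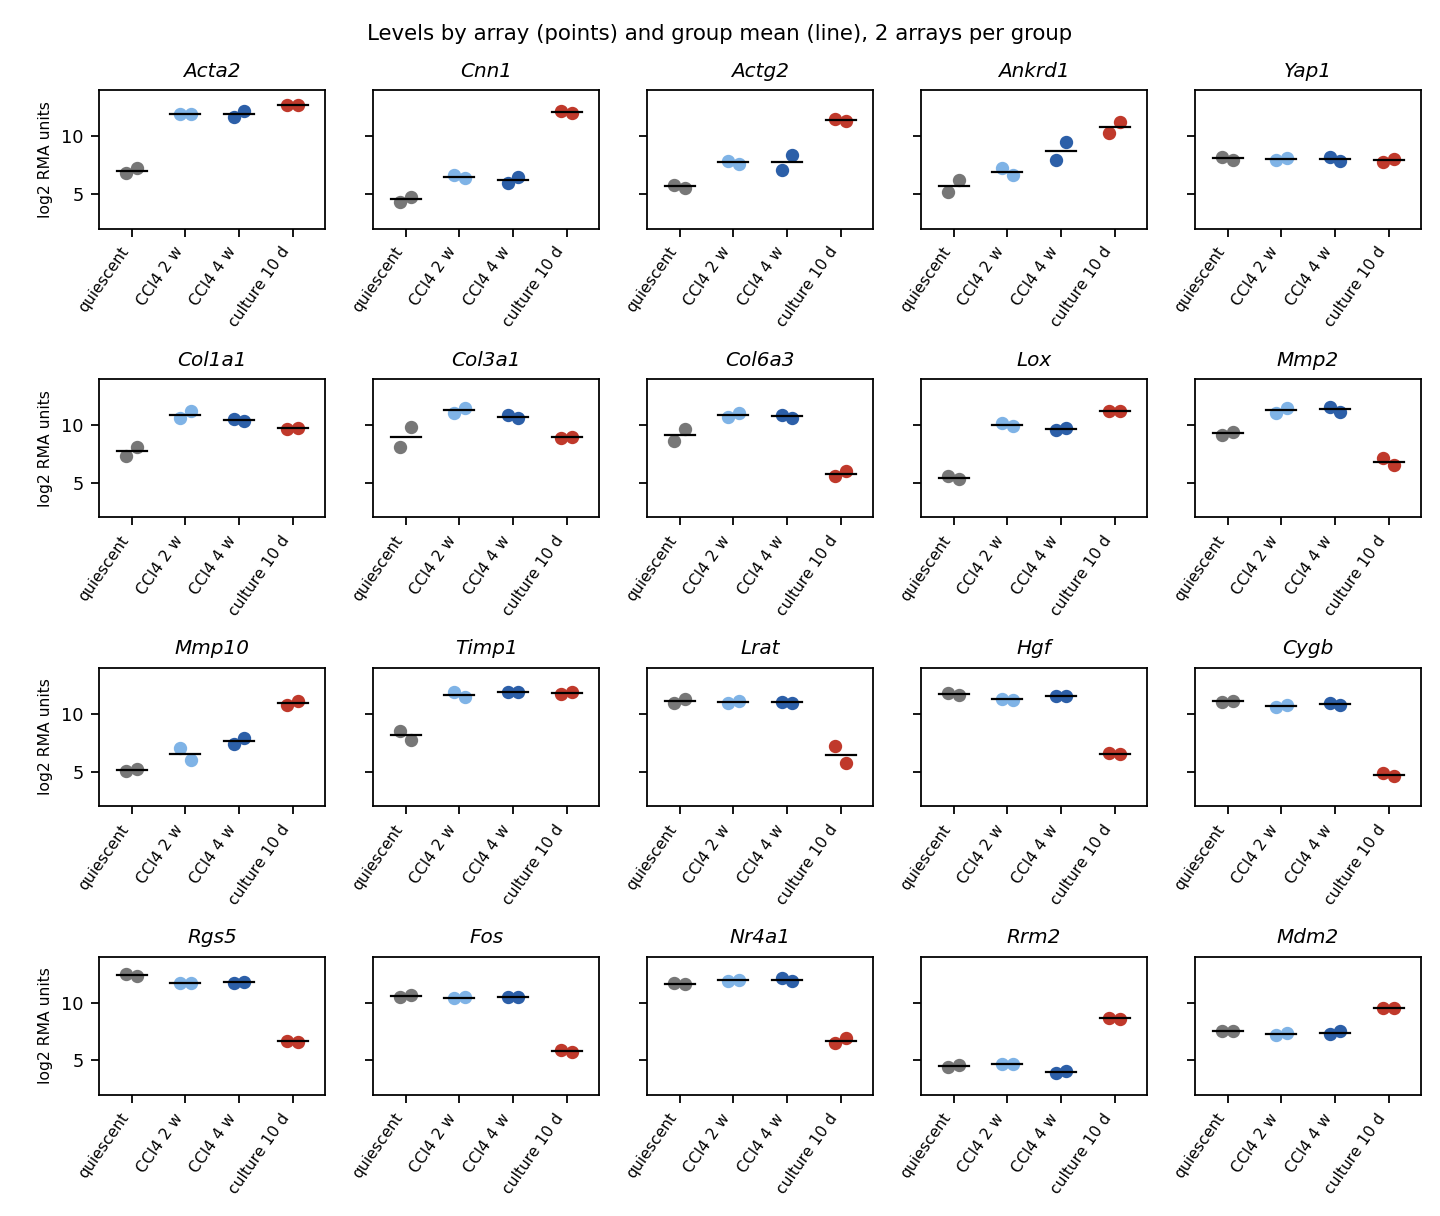
Each panel shows 1 gene, with its level on each array as a point and the mean of the 2 arrays of a group as a line, in log2 RMA units on the same axis, for quiescent cells, 2 and 4 weeks of CCl4 and 10 days of culture. Acta2 and Timp1 are high in CCl4 and culture arrays alike, Cnn1, Actg2, Mmp10, Rrm2 and Mdm2 are highest in culture, and Lrat, Hgf, Cygb, Rgs5, Fos and Nr4a1 are low in culture while the CCl4 arrays lie near the quiescent ones.

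YAP and TAZ target genes were tested next, since the study concerns this pathway. Of 24 targets, 13 were higher and 4 lower in culture (12.6% and 8.72% of all genes), with a median difference of 0.64. Ankrd1, a muscle ankyrin repeat protein widely used as a YAP reporter, was 10.33 and 11.21 in culture, 7.22 and 6.66 at 2 weeks and 7.94 and 9.50 at 4 weeks of CCl4, from 5.20 and 6.25 in quiescent cells. Its culture arrays lay above all CCl4 arrays (2.94 ± 0.46, adjusted p = 0.00187), while the 4-week pair differed by more than 1 unit. The promoter of Ankrd1 is shown because TEAD proteins bind the core GGAATG, here in capitals. The window is the 250 bases before the start at chr19:36119845-36120094 on the minus strand (RefSeq, GRCm38.p6), with matches beginning 210 and 123 bases before the start.
Ankrd1 promoter: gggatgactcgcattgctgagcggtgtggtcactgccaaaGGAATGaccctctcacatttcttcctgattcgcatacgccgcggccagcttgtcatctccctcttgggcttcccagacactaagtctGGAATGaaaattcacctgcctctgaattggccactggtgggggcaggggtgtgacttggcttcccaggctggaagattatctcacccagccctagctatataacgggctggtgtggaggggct
Searched on both strands, GGAATG stood in 12.6% of 32851 RefSeq promoter windows of this length, in 14.4% of the 27025 genes that have one, and in 7 of the 17 targets with a window. The 7 included genes called higher in culture, such as Ankrd1, and genes not called, such as Ccn1. A match is a description and not a measured site.

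F3, tissue factor, which starts clotting, had the largest difference of the targets (11.21 and 11.56 in culture, 6.77 and 6.46 at 2 weeks and 7.24 and 7.47 at 4 weeks of CCl4, 4.40 ± 0.25, adjusted p = 6.91e-06). Birc5, the mitotic protein survivin, differed by 3.34 ± 0.15 and the exchange factor Dock5 by 2.47 ± 0.15 (adjusted p = 1.97e-06 and 9.19e-06). The secreted CCN proteins, the other common reporters, differed less. Ccn2 stood at 11.56 and 11.68 in culture, 10.77 and 10.31 at 2 weeks and 11.24 and 11.45 at 4 weeks (0.67 ± 0.16, adjusted p = 0.0174). That call was lost without either culture array (adjusted p = 0.0704 and 0.13) or 4-week replicate 1 (0.0601), with CCl4 as 1 group (0.138) and on the mean of its probe sets (0.129), the dimmer of which gave 0.08. Ccn1 was not called (-0.32 ± 0.20, adjusted p = 0.325), with culture at 11.21 and 11.43 and CCl4 at 11.56 to 11.77. Nt5e, the enzyme CD73 that makes adenosine, was lower (-1.27 ± 0.17, adjusted p = 0.000982), as was the RNA-binding gene Rbms3 (-0.76 ± 0.13, adjusted p = 0.00306). The 4 lower targets were 2 with culture replicate 1, culture replicate 2, 2-week replicate 2 or either 4-week array left out.

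The Hippo pathway itself gave 9 genes higher and 2 lower of 24, with a median difference of 0.14. Yap1 read 7.81 and 8.02 in culture, 7.99 and 8.13 at 2 weeks and 8.23 and 7.87 at 4 weeks of CCl4, with overlapping arrays (-0.14 ± 0.15, adjusted p = 0.606). Wwtr1, which encodes TAZ, was higher (9.48 and 9.83 against 8.92 to 9.07, 0.68 ± 0.15, adjusted p = 0.0123), a call lost without culture replicate 2 (adjusted p = 0.136). Tead1 was not called (0.34 ± 0.18, adjusted p = 0.254). The cofactor Vgll3 read 9.98 and 9.95 in culture, 7.73 and 7.42 at 2 weeks and 8.14 and 8.43 at 4 weeks of CCl4 (2.04 ± 0.22, adjusted p = 0.000228), and the atypical cadherin Fat1 9.70 and 9.70 in culture against 7.74 to 8.11 (1.75 ± 0.11, adjusted p = 1.05e-05). For both genes the quiescent arrays were the lowest, at 5.38 and 6.19 and at 5.55 and 5.48. Amot, a scaffold that binds YAP, differed by 1.35 ± 0.17. The lower members were Frmd6, an upstream activator (-0.92 ± 0.14, adjusted p = 0.00161), and Dchs1, the partner cadherin of the Fat proteins (-0.97 ± 0.18, adjusted p = 0.00425), whose call was lost without culture replicate 2 (adjusted p = 0.0544), leaving 1.

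Collagen genes were more often lower than higher in culture. Of 27 chains, 14 were lower and 2 higher, with a median difference of -0.42. Col1a1, the main chain of fibrillar type I collagen, read 9.70 and 9.72 in culture, 10.64 and 11.19 at 2 weeks and 10.54 and 10.34 at 4 weeks of CCl4, from 7.33 and 8.14 in quiescent cells. The culture arrays lay below all CCl4 arrays (-0.97 ± 0.23, adjusted p = 0.017), a call lost without culture replicate 1 (adjusted p = 0.0998), culture replicate 2 (0.0964), 2-week replicate 2 (0.0517) or 4-week replicate 1 (0.0582). Its partner chain Col1a2 stood at 11.43 and 11.11 against 12.23 to 12.37 (-1.04 ± 0.18, adjusted p = 0.00324), and a dimmer probe set gave -2.64. Col3a1, of type III collagen, read 8.89 and 8.99 in culture, 11.07 and 11.52 at 2 weeks and 10.84 and 10.59 at 4 weeks of CCl4 (-2.06 ± 0.38, adjusted p = 0.00464).

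The collagens farthest apart were not the fibrillar ones. The 3 chains of type VI named here, the beaded filament around cells, stood at 8.17 and 8.44 for Col6a1, 3.70 and 3.67 for Col6a5 and 5.57 and 6.03 for Col6a3 in culture, against 11.04 to 11.45, 7.68 to 8.24 and 10.63 to 11.02 after CCl4. Their differences were -2.97 ± 0.15, -4.25 ± 0.21 and -5.01 ± 0.26, the last chosen after its values were seen, and in each the quiescent arrays lay above culture. Col15a1, a basement membrane collagen, read 4.36 and 3.82 in culture, 7.58 and 7.44 at 2 weeks and 8.20 and 8.0 at 4 weeks of CCl4 (-3.72 ± 0.17, adjusted p = 1.88e-06), and its culture level was under the background guide and near the quiescent 4.53 and 4.72. The chains higher in culture were Col4a5, of basement membranes (7.89 and 7.67 against 6.0 to 6.57, 1.62 ± 0.18, adjusted p = 0.000302), and Col11a1, a minor fibrillar chain (1.0 ± 0.15, adjusted p = 0.00132). The count of lower chains was 9 without culture replicate 2, and that of higher chains 5 when either quiescent array was left out, Col5a2, Col8a1 and Col12a1 being added.

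Genes that process collagen divided, with 4 higher and 5 lower of 20 and a median difference of 0.13. Lox, the crosslinking oxidase, read 11.23 and 11.18 in culture, 10.17 and 9.92 at 2 weeks and 9.55 and 9.76 at 4 weeks of CCl4, from 5.59 and 5.33 in quiescent cells (1.36 ± 0.14, adjusted p = 0.000183), whereas its relative Loxl1 read 7.66 and 7.54 in culture, 9.88 and 10.04 at 2 weeks and 9.85 and 9.55 at 4 weeks of CCl4 (-2.23 ± 0.21, adjusted p = 0.00011). Pcolce2, an enhancer of propeptide removal, was higher (2.03 ± 0.25, adjusted p = 0.000553), as was the prolyl hydroxylase subunit P4ha2 (1.04 ± 0.14, adjusted p = 0.000905). P3h3, of the prolyl 3-hydroxylase family, was lower (-1.03 ± 0.16, adjusted p = 0.0016). The 5 lower members were 3 with any 1 of the culture or 4-week arrays left out.

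Among 33 matricellular proteins, proteoglycans and elastic fibre genes, 5 were higher and 16 lower in culture, with a median difference of -0.35. Tgfbi, an adhesive matrix protein, read 5.66 and 5.14 in culture, 11.46 and 11.57 at 2 weeks and 11.51 and 11.61 at 4 weeks of CCl4, and the quiescent arrays, at 12.38 and 12.55, were higher still (-6.14 ± 0.16, adjusted p = 7.68e-08). The elastic fibre gene Mfap4 stood at 6.28 and 6.08 against 8.72 to 9.77 (-3.09 ± 0.16, adjusted p = 4.5e-06), and Thbs2, an antiangiogenic thrombospondin, at 6.2 and 5.77 against 9.52 to 10.17 (-3.92 ± 0.22, adjusted p = 5.48e-06). Mfap5, a microfibril protein, was higher, although its culture arrays were more than 1 unit apart (8.81 and 7.63 against 4.50 to 5.08, 3.41 ± 0.29, adjusted p = 5.7e-05). Fbln2, a fibulin (2.66 ± 0.23, adjusted p = 7.09e-05), and Ogn, the proteoglycan osteoglycin (2.95 ± 0.30, adjusted p = 0.00017), were higher too. Ogn stood at 8.73 and 8.78 at 2 weeks and 7.51 and 7.13 at 4 weeks, so its difference was 2.23 ± 0.34 against the first and 3.67 ± 0.34 against the second. The 5 higher members were 3 without culture replicate 1, 2-week replicate 1 or 4-week replicate 1.

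Of 22 matrix proteases and inhibitors, 4 were higher and 9 lower in culture, beside 12.6% and 8.72% of all genes. The higher count was not far above that share. The median difference of the list was -0.37. Mmp10, stromelysin 2, read 10.80 and 11.14 in culture, 7.01 and 6.03 at 2 weeks and 7.39 and 7.89 at 4 weeks of CCl4 (3.89 ± 0.27, adjusted p = 1.66e-05), and Mmp13, the main rodent collagenase, 7.0 and 7.57 in culture, 4.85 and 5.09 at 2 weeks and 4.65 and 4.62 at 4 weeks of CCl4 (2.48 ± 0.18, adjusted p = 2.81e-05). The inhibitor Timp3 was higher (1.09 ± 0.12, adjusted p = 0.000225). Mmp2, gelatinase A, was 22.5-fold lower: 7.12 and 6.55 in culture, 11.07 and 11.51 at 2 weeks and 11.55 and 11.17 at 4 weeks of CCl4 (-4.49 ± 0.21, adjusted p = 1.97e-06). Plat, tissue plasminogen activator, read 6.0 and 6.03 in culture, 10.56 and 10.43 at 2 weeks and 10.81 and 10.70 at 4 weeks of CCl4 (-4.61 ± 0.19, adjusted p = 1.01e-06), and Mmp19 6.40 and 6.53 in culture against 9.04 to 9.65 (-2.86 ± 0.15, adjusted p = 4.27e-06). The Mmp19 culture level lay beside the quiescent 6.56 and 6.17, while the Mmp2 and Plat culture levels lay below both quiescent arrays. Timp1, the most used protease inhibitor marker of fibrosis, stood at 11.73 and 11.87 in culture and 11.44 to 11.90 after CCl4, with overlapping arrays and no call (0.02 ± 0.23, adjusted p = 0.965).

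Immediate early genes, which cells switch on within minutes of a stimulus and which include the AP-1 subunits and the NR4A nuclear receptors, were nearly all lower in culture. Of 28, 25 were lower and 0 higher (limma, 0 at an unadjusted p under 0.05), with a median difference of -2.44. Fosb, an AP-1 subunit, read 4.92 and 5.27 in culture, 10.84 and 10.95 at 2 weeks and 10.83 and 10.89 at 4 weeks of CCl4, and Fos 5.91 and 5.77 in culture, 10.37 and 10.49 at 2 weeks and 10.50 and 10.53 at 4 weeks of CCl4. Nr4a1, an orphan nuclear receptor, read 6.47 and 6.98 in culture, 11.84 and 12.01 at 2 weeks and 12.10 and 11.92 at 4 weeks of CCl4. In all 3 genes the 4 CCl4 arrays lay close together and near the quiescent arrays, which stood at 11.07 and 10.87, 10.49 and 10.68 and 11.73 and 11.58. The differences were -5.78 ± 0.14, -4.63 ± 0.12 and -5.24 ± 0.16 (adjusted p = 5.19e-08, 7.68e-08 and 1.95e-07). The CCl4 and quiescent cells had been freshly taken from liver and the cultured cells had not, which cannot be told apart from the route of activation.

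The promoters of Fos and Nr4a1 are shown because members of this list differed together and many are known targets of CREB-type factors, whose half-site is CGTCA, in capitals on either strand. Both windows are the 250 bases before the start (RefSeq, GRCm38.p6), Fos at chr12:85473640-85473889 and Nr4a1 at chr15:101266596-101266845, each on the plus strand.
Fos promoter: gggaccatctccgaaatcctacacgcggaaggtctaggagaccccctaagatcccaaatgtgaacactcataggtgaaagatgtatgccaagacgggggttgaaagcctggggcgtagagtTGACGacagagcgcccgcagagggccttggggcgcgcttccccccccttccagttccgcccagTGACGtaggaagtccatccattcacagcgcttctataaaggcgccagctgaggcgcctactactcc
Nr4a1 promoter: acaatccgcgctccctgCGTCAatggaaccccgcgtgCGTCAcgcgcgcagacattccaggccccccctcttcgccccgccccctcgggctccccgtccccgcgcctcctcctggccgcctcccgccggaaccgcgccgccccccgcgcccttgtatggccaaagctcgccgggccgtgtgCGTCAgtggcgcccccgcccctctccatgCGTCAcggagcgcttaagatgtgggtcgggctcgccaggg
Fos holds 2 matches, beginning 129 and 66 bases before the start, and Nr4a1 holds 4, at 233, 213, 69 and 40 bases. CGTCA stood in 17.8% of 32851 windows and in 19.8% of 27025 genes, and in 14 of the 24 list members with a window. For the contractile list, the CArG box of serum response factor was searched in the same way and stood in 4 of 23 members (Cnn2, Myl9, Vcl and Srf, named for the match alone), against 1.62% of genes. None of these 4 was called in culture against CCl4 (limma, adjusted p 0.0581 to 0.566), though Cnn2 and Myl9 were with the 6 arrays alone.

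Cytokines and chemokines were mostly lower in culture, 17 of 27, with 4 higher and a median difference of -1.14. Cxcl1, a neutrophil attractant, read 5.47 and 5.15 in culture, 10.87 and 11.12 at 2 weeks and 9.56 and 10.27 at 4 weeks of CCl4 (-5.14 ± 0.20, adjusted p = 7.72e-07), and its neighbour Cxcl2 5.89 and 6.25 against 8.51 to 9.85 (-3.14 ± 0.20, adjusted p = 9.72e-06). Ccl11, eotaxin, was 5.19 and 4.77 in culture, 7.4 and 7.55 at 2 weeks and 8.04 and 8.45 at 4 weeks (-2.88 ± 0.17, adjusted p = 6.97e-06). The genes higher in culture included the one with the largest positive difference of all 22180. Tnfsf18, the ligand of the T cell receptor GITR, read 10.00 and 10.07 in culture, 3.44 and 3.22 at 2 weeks and 3.33 and 3.11 at 4 weeks of CCl4, so that the culture arrays were far above a CCl4 level that lay under the background guide (6.76 ± 0.14, adjusted p = 2.92e-08). Csf1, the growth factor of macrophages, read 11.64 and 11.67 in culture, 9.08 and 9.37 at 2 weeks and 9.54 and 9.69 at 4 weeks of CCl4 (2.24 ± 0.13, adjusted p = 7.73e-06). Ptgs2, the prostaglandin enzyme COX-2, was 10.51 and 11.43 in culture and 8.79 to 9.71 after CCl4, from 6.04 and 5.16 in quiescent cells (1.70 ± 0.30, adjusted p = 0.00344).

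Interferon response and antigen processing genes were lower in 18 of 23 cases and higher in 0 (limma, 0 at an unadjusted p under 0.05), with a median difference of -1.16. Irf7, a master regulator of interferon, read 6.06 and 5.68 in culture, 8.08 and 8.36 at 2 weeks and 8.74 and 9.02 at 4 weeks of CCl4 (-2.68 ± 0.16, adjusted p = 7.73e-06). Oas2, an RNA sensor, stood at 4.96 and 5.50 against 8.22 to 8.26 (-3.01 ± 0.21, adjusted p = 1.68e-05) and Ifih1, the sensor MDA5, at 7.12 and 7.07 against 8.40 to 8.58 (-1.36 ± 0.12, adjusted p = 6.43e-05). In all 3 the quiescent arrays were also above culture. Complement genes gave 9 lower and 1 higher of 17, with a median difference of -1.77. C4b, a component of the classical pathway with a near-identical copy in the genome, read 5.51 and 5.76 in culture, 10.96 and 10.90 at 2 weeks and 11.38 and 11.32 at 4 weeks of CCl4 (-5.51 ± 0.15, adjusted p = 8.7e-08). C1s1, a protease of the same pathway that also has a close copy, differed by -3.09 ± 0.15, and Cfb, of the alternative pathway, by -3.92 ± 0.20. Hepatocytes also make these proteins, and the hepatocyte markers moved the same way (median 4.61 and 4.58 in culture against 5.83 to 7.61), a part that was not tested. Cd59a, which shields cells from complement, was higher (1.65 ± 0.31, adjusted p = 0.00512), a call lost without culture replicate 2 (difference 1.34). The receptor C3ar1 was called higher only with the quiescent arrays, or either one, left out. Its culture and CCl4 arrays overlapped: 6.85 and 7.08 in culture, 7.08 and 7.27 at 2 weeks and 5.77 and 5.93 at 4 weeks. The C3ar1 difference was -0.21 ± 0.22 against 2 weeks and 1.12 ± 0.22 against 4 weeks.

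**Figure D4:**
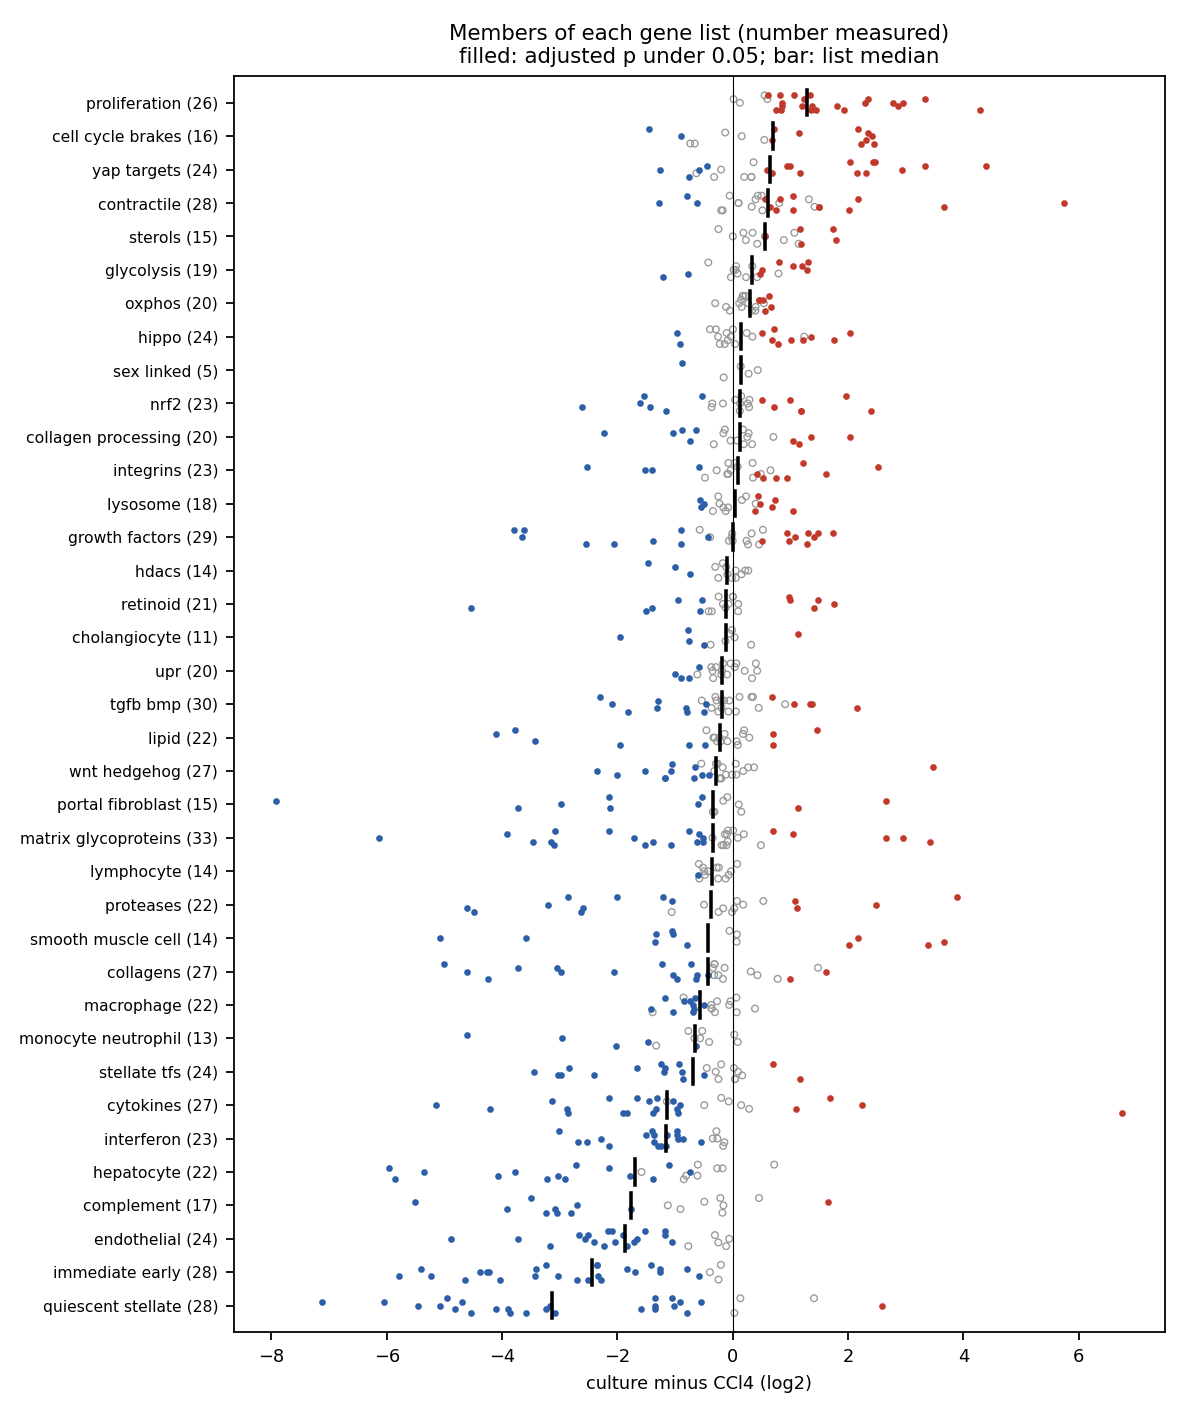
Each row is 1 of 37 gene lists with the number of measured members in brackets, each point a member's difference of culture minus CCl4 on the log2 scale (filled red or blue where called higher or lower, open where not), and each black bar the list's median. Lists are ordered by median, from cell cycle genes (1.29, with 22 of 26 called higher) to genes of the quiescent stellate cell (-3.13, with 24 of 28 called lower); upr stands for the unfolded protein response.

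Cell cycle genes were higher in culture in 22 of 26 cases and lower in 0 (limma, 0 at an unadjusted p under 0.05), with a median difference of 1.29. Rrm2, which makes deoxynucleotides for replication, read 8.69 and 8.58 in culture, 4.69 and 4.66 at 2 weeks and 3.95 and 4.10 at 4 weeks of CCl4, from 4.39 and 4.64 in quiescent cells (4.28 ± 0.13, adjusted p = 1.51e-07), and a dimmer probe set gave 2.40. Tpx2, a spindle assembly factor, read 7.26 and 7.30 in culture, 4.64 and 4.61 at 2 weeks and 4.33 and 4.41 at 4 weeks of CCl4 (2.79 ± 0.12, adjusted p = 1.4e-06). In both, the CCl4 arrays lay near the quiescent arrays and under the background guide, and 8 of the 26 genes lay at or under that guide in the CCl4 arrays. Regulators that restrain the cycle, with p53 targets and D cyclins, were also mostly higher, 9 of 16 with 2 lower (median 0.70). Ccng1, a p53-induced cyclin, read 11.57 and 11.55 in culture, 9.28 and 9.16 at 2 weeks and 9.18 and 8.83 at 4 weeks of CCl4 (2.45 ± 0.13, adjusted p = 5.18e-06), and Mdm2, the p53 ubiquitin ligase, 9.51 and 9.57 in culture, 7.23 and 7.39 at 2 weeks and 7.29 and 7.53 at 4 weeks of CCl4 (2.18 ± 0.12, adjusted p = 6.48e-06). Cdkn2b, the kinase inhibitor p15, was higher by 2.42 ± 0.18 (adjusted p = 2.95e-05).

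Cdkn1b, the kinase inhibitor p27 of resting cells, was lower (7.28 and 6.86 against 8.25 to 8.86, -1.45 ± 0.18, adjusted p = 0.000488). The p53 target Sesn1 was called lower too (-0.89 ± 0.26, adjusted p = 0.0368), but lost its call without culture replicate 1 (adjusted p = 0.186), culture replicate 2 (0.139), 2-week replicate 2 (0.0908) or 4-week replicate 1 (0.11) and with CCl4 as 1 group (0.0506), each of which left 1 lower member.

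Among metabolic genes, glycolysis came first. Of 19 glycolysis and hypoxia genes 7 were higher and 2 lower, with a median of 0.34. Pgk1 stood at 10.64 and 10.47 in culture against 9.10 to 9.40 (1.29 ± 0.12, adjusted p = 8.93e-05) and Pgam1 at 9.99 and 9.99 against 8.86 to 9.03 (1.05 ± 0.11, adjusted p = 0.000243), both enzymes of the lower pathway, although a dimmer Pgam1 probe set gave 0.53 and was not called. The angiogenic factor Vegfa was higher (1.20 ± 0.16, adjusted p = 0.000858). Hk2, the first enzyme of the pathway, was lower (-0.77 ± 0.15, adjusted p = 0.00523, and 0.0586 without culture replicate 1), and so was the hypoxia gene Ndrg1 (-1.21 ± 0.34, adjusted p = 0.0334), which lost its call whenever a culture or CCl4 array was left out (adjusted p 0.0656 to 0.198). Without culture replicate 2 the list held 4 higher and 1 lower gene, without culture replicate 1 it held 0 lower, and without any 1 of the CCl4 arrays 1 lower.

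Respiratory chain subunits gave 6 of 20 higher and 0 lower (limma, 1 at an unadjusted p under 0.05), all by less than 1 unit, with a median of 0.30. Cox5a, of the terminal oxidase, stood at 11.58 and 11.58 against 10.84 to 11.02 (0.63 ± 0.12, adjusted p = 0.0051). The count was 1 without culture replicate 1 and 3 without culture replicate 2. Sterol synthesis genes gave 5 of 15 higher and 0 lower (limma, 0 at an unadjusted p under 0.05). Sc5d, a desaturase late in the pathway, stood at 9.17 and 9.17 against 6.98 to 7.58 (1.80 ± 0.16, adjusted p = 9.08e-05). Msmo1, a sterol oxidase, differed by 1.74 ± 0.33 (adjusted p = 0.00566, and 0.0628 without culture replicate 2). The sterol count was 2 and 1 without culture replicates 1 and 2, and 3 without 2-week replicate 2 or 4-week replicate 1.

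Genes of the endoplasmic reticulum's unfolded protein response were lower in 4 of 20 cases and higher in 0 (limma, 2 at an unadjusted p under 0.05). Atf6 was called higher in 4 of the 15 alternatives, some of which are the same fit. Hspa5, the chaperone BiP, stood at 9.26 and 9.23 in culture against 9.89 to 10.27 (-0.90 ± 0.13, adjusted p = 0.0011). Herpud1, of protein degradation there, differed by -1.0 ± 0.17 and the transcription factor Xbp1 by -0.77 ± 0.13 (adjusted p = 0.00343 and 0.00357). Lysosomal genes gave 6 higher and 3 lower of 18, with Atp6v1h, a proton pump subunit, the clearest (1.05 ± 0.14, adjusted p = 0.000866). Those counts rested on few arrays: 2 higher and 1 lower without culture replicate 1, 1 and 1 without culture replicate 2, 2 higher without 2-week replicate 1 and 3 without either 4-week array.

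Antioxidant and NRF2 target genes gave 7 higher and 6 lower of 23. Nqo1, a quinone reductase, read 7.03 and 7.21 in culture, 4.86 and 4.68 at 2 weeks and 4.61 and 4.69 at 4 weeks of CCl4 (2.41 ± 0.14, adjusted p = 6.97e-06). Taldo1, of the pentose phosphate pathway, stood at 9.76 and 10.03 against 7.78 to 8.08 (1.97 ± 0.15, adjusted p = 3.17e-05), whereas the glutathione transferase Gsta4 stood at 5.53 and 5.48 against 7.66 to 8.57 (-2.61 ± 0.22, adjusted p = 6.5e-05). Of 14 histone deacetylases and sirtuins, the first of which include the targets of valproic acid, 3 were lower and 0 higher (limma, 0 at an unadjusted p under 0.05): Hdac9 (-1.01 ± 0.13, adjusted p = 0.000685), Hdac5 (-1.48 ± 0.24, adjusted p = 0.00242) and Hdac7 (-0.75 ± 0.17, adjusted p = 0.0142, and 0.144 without culture replicate 1).

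Among 30 genes of the TGF-beta, activin and BMP families, 5 were higher and 9 lower, the latter 5 without culture replicate 1. The ligand Tgfb2 read 9.21 and 8.99 in culture, 6.90 and 7.06 at 2 weeks and 6.91 and 6.93 at 4 weeks of CCl4, from 4.58 and 5.48 in quiescent cells (2.15 ± 0.22, adjusted p = 0.00019). Inhba, the activin A subunit, stood at 7.39 and 8.06 in culture, 5.88 and 5.45 at 2 weeks and 6.99 and 7.20 at 4 weeks (1.34 ± 0.21, adjusted p = 0.00177). That difference was 2.06 ± 0.24 against 2 weeks but 0.63 ± 0.24 against 4 weeks (adjusted p = 0.117), and the call was lost with CCl4 as 1 group (0.0761). The BMP antagonist Grem1 was higher (1.07 ± 0.13, adjusted p = 0.00043). The ligands Bmp5 (-2.30 ± 0.15, adjusted p = 1.43e-05) and Bmp2 (-2.09 ± 0.22, adjusted p = 0.000201) were lower, as was Bambi, a decoy receptor (-1.82 ± 0.15, adjusted p = 5.11e-05). Bmp2 is also an endothelial marker, and the endothelial median was 5.50 and 5.16 in culture against 6.43 to 7.79 after CCl4; its part was not tested.

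Growth factor genes divided evenly, 9 higher and 9 lower of 29, with a median difference of 0.00. Higher were Bdnf, a neurotrophin (7.88 and 7.74 against 6.21 to 6.61, 1.48 ± 0.14, adjusted p = 0.000139), the receptor Igf1r (1.41 ± 0.16, adjusted p = 0.000282) and the ErbB ligand Nrg1 (1.28 ± 0.19, adjusted p = 0.00141). Lower were Igfbp4, which binds insulin-like growth factors (5.69 and 5.41 in culture, 9.20 and 9.70 at 2 weeks and 9.41 and 9.09 at 4 weeks of CCl4, -3.80 ± 0.18, adjusted p = 2.34e-06), the ligand Igf1 (6.45 and 6.10 against 8.61 to 8.96, -2.54 ± 0.15, adjusted p = 6.48e-06) and Pdgfra, a PDGF receptor of fibroblasts (7.35 and 6.46 against 10.18 to 10.90, -3.62 ± 0.25, adjusted p = 1.8e-05). Receptor and ligand of the insulin-like system thus differed in opposite directions.

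Wnt and hedgehog genes gave 11 lower and 1 higher of 27, the lower ones 4 without culture replicate 2. Dkk2, a secreted Wnt modulator, was the higher member (7.66 and 7.54 in culture, 3.97 and 4.30 at 2 weeks and 4.17 and 4.08 at 4 weeks of CCl4, 3.47 ± 0.14, adjusted p = 9.09e-07), from a CCl4 level under the background guide. The Wnt receptor Fzd1 (-2.36 ± 0.14, adjusted p = 8.87e-06), the ligand Wnt4 (-1.51 ± 0.16, adjusted p = 0.000202) and the hedgehog transcription factor Gli2 (-1.07 ± 0.13, adjusted p = 0.000508) were lower. Integrin and focal adhesion genes gave 7 higher and 4 lower of 23, with 4 and 2 higher without culture replicates 1 and 2. The subunits Itga4, which pairs to bind fibronectin and VCAM-1 (7.65 and 7.87 against 4.95 to 5.36, 2.53 ± 0.15, adjusted p = 6.97e-06), and Itga2, of the collagen receptor (1.62 ± 0.13, adjusted p = 4.27e-05), were higher. Itga6, of the laminin receptor, was higher as well (0.94 ± 0.17, adjusted p = 0.00375), a call lost without culture replicate 2 (adjusted p = 0.0512). Itgb8, whose pair activates latent TGF-beta, was lower (4.56 and 5.32 against 7.24 to 7.74, -2.52 ± 0.23, adjusted p = 8.93e-05), and Itga9, of the tenascin receptor, too (-1.52 ± 0.13, adjusted p = 6.77e-05).

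Beyond the lists, the 12 largest differences in each direction included genes of peptide processing, of stratified epithelium and of the acute phase. Cpe, carboxypeptidase E of peptide hormone processing, read 10.08 and 10.31 in culture, 3.84 and 3.98 at 2 weeks and 4.03 and 3.95 at 4 weeks of CCl4 (6.24 ± 0.12, adjusted p = 2.92e-08), with the CCl4 level under the background guide. Sprr1a, a cornified envelope precursor induced in damaged nerve and heart, read 12.54 and 12.62 in culture, 7.51 and 7.27 at 2 weeks and 6.99 and 5.88 at 4 weeks of CCl4 (5.67 ± 0.36, adjusted p = 1.02e-05). It belongs to a family of similar genes that the probes may not fully separate. Other envelope genes of stratified epithelium were Scel, sciellin (8.26 and 8.24 against 3.09 to 3.19, 5.11 ± 0.13, adjusted p = 6.87e-08), and Ivl, involucrin (8.87 and 8.69 against 4.28 to 4.55, 4.41 ± 0.13, adjusted p = 1.45e-07). The palmitoyltransferase Zdhhc2 differed by 5.63 ± 0.26, the membrane mucin-like Parm1 by 5.53 ± 0.14, and the interferon-inducible Ifi27l2b by 4.95 ± 0.18. Slco4a1, a thyroid hormone transporter (4.72 ± 0.16), and the receptor pseudogene Olfr1372-ps1 (4.96 ± 0.47) complete the group, the latter with CCl4 arrays from 3.22 to 4.11.

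The lowest of the differences was that of Dpt, dermatopontin, a matrix protein listed here as a portal fibroblast marker. It read 3.95 and 3.86 in culture, 11.77 and 11.96 at 2 weeks and 11.84 and 11.73 at 4 weeks of CCl4 (-7.92 ± 0.15, adjusted p = 2.92e-08), with culture under the background guide, so that the size is limited there, and it stood at 10.36 and 10.82 in quiescent cells, so quiescent and CCl4 arrays alike lay far above culture. Of that list of 15 portal fibroblast and mesothelial markers, 7 were lower and 2 higher. Sparcl1, a relative of the matrix protein SPARC, read 4.74 and 5.05 in culture, 12.12 and 12.11 at 2 weeks and 12.21 and 12.27 at 4 weeks of CCl4 (-7.28 ± 0.17, adjusted p = 5.19e-08), and Gdf10, a BMP-like ligand, 5.45 and 6.03 against 11.20 to 11.41 (-5.59 ± 0.17, adjusted p = 1.67e-07). The remaining genes are known from the acute phase response or from hepatocytes: Serpina3n (-7.24 ± 0.70, with close copies), Saa3 (-6.05 ± 0.69) and Hamp, hepcidin (-5.86 ± 0.75). Their quiescent arrays were more than 3 units apart, 11.88 and 8.65, 11.69 and 8.48 and 12.21 and 8.63, which enters the shared estimate of error. Of the 5 sex-linked genes measured, the X-linked demethylase Kdm6a was lower in culture (-0.89 ± 0.13, adjusted p = 0.00155) and the other 4 were not called. Among those 4, the Y-linked Eif2s3y stood at 7.56 to 8.24 on the 8 arrays. It was called higher in 3 of the 15 alternatives.

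The 2 CCl4 times were also set against culture separately. Culture differed from 2 weeks in 2367 genes higher (10.7%) and 1717 lower (7.74%), and from 4 weeks in 2257 higher (10.2%) and 1563 lower (7.05%); both comparisons share the culture arrays. Without 2-week replicate 2 the first pair of counts was 1404 and 1032, and without 4-week replicate 1 the second was 1156 and 859. The 4-week arrays differed from the 2-week arrays in 19 of 22180 genes, 6 higher (0.0271%) and 13 lower (0.0586%), 0.0857% in all, against 1810 at an unadjusted p under 0.05. Leaving out a culture array, a 2-week array or 4-week replicate 2 gave 0 calls (1403 to 1745 at an unadjusted p under 0.05), leaving out 4-week replicate 1 gave 2, and leaving out a quiescent array gave 85.

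Several of those 19 genes mark phagocytes. Vsig4, a complement receptor of Kupffer cells, read 6.0 and 6.78 in culture, 8.33 and 8.62 at 2 weeks and 5.52 and 4.58 at 4 weeks of CCl4, so culture lay below the 2-week pair and above the 4-week pair (-3.42 ± 0.33 between the times, adjusted p = 0.0321). Atp6v0d2, a proton pump subunit of osteoclasts and macrophages, stood at 6.05 and 6.66 at 2 weeks and 4.31 and 3.26 at 4 weeks (-2.57 ± 0.32), with culture at 3.52 and 3.44, and its difference of culture from both times was lost with CCl4 as 1 group (adjusted p = 0.227). The myeloid lectin Clec12a (-1.93 ± 0.21) and the acid-sensing receptor Gpr65 (-1.71 ± 0.19) were lower at 4 weeks too, and Gpr65 lost its call of culture against CCl4 with CCl4 as 1 group (0.0611). The macrophage list moved the same way, from medians of 7.65 and 7.96 at 2 weeks to 6.52 and 6.55 at 4 weeks, and its part was not tested. Genes higher at 4 weeks lay in some cases nearer to culture than at 2 weeks, in others farther from it. Chst11, a chondroitin sulfotransferase, read 8.64 and 9.11 in culture, 6.59 and 6.52 at 2 weeks and 7.87 and 7.95 at 4 weeks of CCl4 (1.35 ± 0.18), and the serpin Serpinb9b, with close copies, 9.82 and 10.14 in culture, 5.15 and 5.39 at 2 weeks and 6.65 and 6.47 at 4 weeks of CCl4 (1.29 ± 0.16). Rnu3a, a small nucleolar RNA gene, read 6.53 and 6.96 in culture, 8.81 and 8.98 at 2 weeks and 10.91 and 10.80 at 4 weeks of CCl4 (1.96 ± 0.22), away from culture. Mir302c was 3.08 and 2.92 in culture, 2.90 and 2.86 at 2 weeks and 4.38 and 4.17 at 4 weeks (1.39 ± 0.17), all under the background guide. Its call of culture against both times was lost with CCl4 as 1 group and with any 1 array of culture, 2 weeks or 4-week replicate 1 left out (adjusted p 0.0549 to 0.428).

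Of 483 microRNA genes on the array, whose probe sets are named for the hairpin gene and need not read the mature strand, 6 were higher (1.24%) and 17 lower (3.52%) in culture, lower shares than the 12.6% and 8.72% of all genes. The 3 named here, the 2 with the largest differences downward and the 1 with the largest upward, were chosen after their values were seen. Their mature sequences (RefSeq, GRCm38.p6) are shown with the seed, bases 2 to 8, in capitals. Mir23a and Mir27a lie next to each other at chr8:84208563-84208583 and chr8:84208727-84208747 on the plus strand, by their mature arms, and the arm of Mir181b-2 is at chr2:38853845-38853868.
mmu-miR-23a-3p: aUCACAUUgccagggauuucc
mmu-miR-27a-3p: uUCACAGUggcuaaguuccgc
mmu-miR-181b-5p: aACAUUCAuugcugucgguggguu
The seeds of the 3 differ. The Mir23a gene read 5.41 and 4.79 in culture, 8.15 and 8.75 at 2 weeks and 9.73 and 9.71 at 4 weeks of CCl4 (-3.98 ± 0.23, adjusted p = 6.48e-06), and its neighbour Mir27a 5.93 and 5.22 in culture, 8.20 and 8.25 at 2 weeks and 9.54 and 9.26 at 4 weeks of CCl4 (-3.24 ± 0.19, adjusted p = 7.45e-06). In both, the culture arrays were the lowest of all 8, with quiescent arrays at 7.97 and 8.40 and 8.34 and 8.31. Mir181b-2 went the other way, 5.41 and 6.24 against 3.64 to 4.33 (1.82 ± 0.27, adjusted p = 0.00137).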

How the data were processed

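RNA was preamplified (Pico Ovation WTA V2) and biotin-labelled before hybridisation, per the labels' protocols. The submitters' processing notes name RMA and Affymetrix Expression Console as the source of the log2 values that the authors deposited; their versions are not given in the sources used here. That procedure adjusts background, quantile normalizes all arrays together and summarises probes, so a change common to nearly all genes is removed. Array medians ran from 4.63 to 4.72 and values were used as deposited. With 2 arrays a group, their number limits the precision.

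Of 41345 probe sets, 23521 had 1 gene symbol in the platform annotation, 1814 had several and 16010 were not named here. Through gene IDs and a RefSeq table (GRCm38.p6) 0 symbols changed, and 193 IDs had no row. Of 1082 genes that had more than 1 probe set, the brightest on average across the 8 arrays was kept, leaving 22180 genes. Probe sets were called in opposite directions in 2 genes.

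Groups came from the titles. limma 3.58.1 in R 4.3.3 (lmFit, eBayes) fitted all 8 arrays as 4 groups, with 4 residual and 4.75 prior degrees of freedom, two-sided, and was tested on simulated data. Comparisons were culture against both CCl4 times, against each time, and 4 against 2 weeks. Exact permutation of 2 against 4 arrays has a smallest two-sided p of 0.133 and was not used. Members and the 37 gene lists were chosen with earlier results of these data known. Some lists share genes.

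Named genes are 16 fixed ones, the 12 largest differences each way among called genes whose groups do not overlap, in each list the 3 called members of smallest p each way and those against the list's larger side, and the 4 largest each way between CCl4 times. Other genes named were chosen after their values were seen. Alternatives were 6 arrays only, CCl4 as 1 group, a replicate block, eBayes with trend and robust, a filter at a highest group mean of 5, the mean of probe sets, renewed quantile normalization, and each array left out. Leaving out either quiescent array is the same fit as 6 arrays only.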

Additional observations from a re-analysis of the deposited data

Results flagged for a closer look

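Between 4 and 2 weeks of CCl4, 9 of the named genes differed by limma's test of that difference, so that their distance from culture depended on the time. On the log2 scale, 4 weeks minus 2 weeks, the differences were -3.42 for Vsig4, -2.57 for Atp6v0d2, -1.93 for Clec12a, -1.71 for Gpr65 and -1.41 for Cd68, all known from immune cells. They were 1.96 for the small nucleolar RNA gene Rnu3a, 1.39 for Mir302c, 1.35 for Chst11 and 1.29 for Serpinb9b. Adjusted p ran from 0.0321 to 0.0429.

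In 10 of 204 named genes 1 of the 4 CCl4 arrays stood far from the others, by its gap to the nearest array as a share of the whole range. Chance gives such a gap in about 1 in 20 groups, or 10.2 of 204, so the count is at the chance rate. The 2-week replicate 2 array was apart in 4 of them. It was low for Timp1 (0.964 of the range; 11.44 against 11.88 to 11.90) and high for the collagen chain Col4a5 (0.931; 6.57 against at most 6.04 on the others), for Tgfb2 (0.837) and for the semaphorin Sema6a (0.836). The 2-week replicate 1 array was high for Olfr1372-ps1 (0.915) and low for the chaperone Hspa5 (0.831). The 4-week replicate 1 array was high for the RNA sensor Ifih1 (0.887) and low for the integrins Itga6 (0.898) and Itga4 (0.842). The 4-week replicate 2 array was high for Ly6c2 (0.913). In the 9 of these genes that were called, culture lay outside the range of the CCl4 arrays. Timp1 was the one not called.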

How the results depend on the processing

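Of 204 genes named in the text (Mrtfa not counted), 183 were called in culture against CCl4. Of those, 156 kept their call and direction in each of the 15 alternative settings that held the gene. The filter at a highest group mean of 5 removed Crabp1, which was thus not tested in that setting. Another 27 lost it in 1 or more settings, 66 times in all, 10 not called gained one, 45 times in all, and 0 turned direction. With each array left out in turn, the count of genes higher in culture than after CCl4 ran from 1683 to 3007 and that of genes lower from 1163 to 2218. Against 2 weeks alone these ranges were 1386 to 2594 and 1032 to 2014, and against 4 weeks 1156 to 2489 and 859 to 1806. Counts moved by over 1.5 times without culture replicate 2 (1683 and 1163 over both times) and, for the lower genes, without culture replicate 1 (1268). Against 2 weeks they did so without 2-week replicate 2 (1404 and 1032) or culture replicate 2 (1386 and 1041), and against 4 weeks without 4-week replicate 1 (1156 and 859), 4-week replicate 2 (1287 and 958) or culture replicate 2 (1395 and 948). With a culture array left out, the lone one was assumed to vary like the other groups. In the 7 settings other than leaving out an array, counts of culture against CCl4 lay within 1.5 times those reported.

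The 19 genes between 4 and 2 weeks of CCl4 were 85 when only the 6 arrays of culture and CCl4 were fitted (2188 at an unadjusted p under 0.05). Leaving out 1 array gave 0 to 85, with 1204 to 2188 at an unadjusted p under 0.05. Replicate numbers, which the labels use but do not tie to a mouse or day, did not pair the arrays: same-numbered deviations correlated at -0.042, 0.0166 and 0.0214 over genes. With the replicate number as a block, 2733 genes were higher and 1891 lower in culture and 9 differed between the times, and of the named genes Sesn1 lost its call (adjusted p = 0.0548) and Cnn2 (0.0474) and Col5a2 (0.0381) gained one. Signal near background limits the fold of the 369 lower genes whose culture mean, and the 473 higher genes whose CCl4 mean, lay at or under the receptor guide.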

Other observations

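Some genes and families outside the lists also differed between culture and CCl4 cells, and those given here were chosen after their values were seen. Of 20 semaphorins, secreted or membrane guidance cues, 3 were higher and 8 lower in culture. Sema3e read 6.57 and 7.42 in culture, 3.65 and 3.56 at 2 weeks and 3.39 and 3.52 at 4 weeks of CCl4 (3.46 ± 0.21, adjusted p = 8.33e-06) and Sema3a, the classical axon repellent, 6.96 and 6.94 against 5.74 to 6.19 (0.99 ± 0.11, adjusted p = 0.000292). The transmembrane Sema6d stood at 8.15 and 7.67 in culture against 9.73 to 10.06 after CCl4 (-1.99 ± 0.15, adjusted p = 2.82e-05), and Sema6a at 4.05 and 3.84 against 5.67 to 6.12 (-1.88 ± 0.26, adjusted p = 0.000921). Culture and CCl4 arrays did not overlap in these 4 genes, which were chosen with their values known. Both culture arrays lay above all CCl4 arrays in 21.7% of all genes and below them in 18.2%.

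Of 12 small proline-rich genes, the family of Sprr1a, 6 were higher in culture and 0 lower, and of 7 serpin b9 genes, which inhibit granzyme-type proteases, 4 were higher and 0 lower. Serpinb9e differed by 3.44 ± 0.26 and Serpinb9b by 4.07 ± 0.14. Both families have similar copies that probes may not separate. Asns, asparagine synthetase, an enzyme induced when amino acids are short, read 9.44 and 9.57 in culture, 5.27 and 5.41 at 2 weeks and 5.62 and 5.72 at 4 weeks of CCl4 (4.00 ± 0.12, adjusted p = 1.59e-07). The death receptors Tnfrsf10b (8.47 and 8.46 in culture, 4.63 and 3.97 at 2 weeks and 4.14 and 4.20 at 4 weeks of CCl4, 4.23 ± 0.18, adjusted p = 1.25e-06) and Eda2r (7.93 and 8.28 against 4.31 to 4.79, 3.64 ± 0.17, adjusted p = 1.88e-06), both known p53 targets, were higher with Mdm2 and Ccng1. Of 73 small nucleolar RNA genes, 2 were higher (2.74%) and 13 lower (17.8%) in culture, beside 12.6% and 8.72% of all genes. The 1105 olfactory receptor genes gave 5 higher and 4 lower, and 37 Hox genes 1 and 0.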
